A study of Mus musculus with 5 samples.

Results

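B1_Mm, B1_Mus1 and B1_Mus2 are the evolutionarily young subfamilies of B1, the short interspersed element (SINE) of the mouse genome that descends from 7SL RNA. They were taken by name from the deposited tables, after any text behind a slash had been dropped. They make up 3 of the 1038 repeat and RNA names with a read in any of the 5 libraries, 3 of the 40 SINE names and 3 of the 10 B1 subfamilies. Each of them had reads in every library.

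A B1 copy is transcribed by RNA polymerase III (Pol III) from a promoter inside the element, and a primary Pol III transcript begins with a 5' triphosphate. Reverse transcription of the RNA by the machinery of LINE-1, a long interspersed element that encodes its own enzymes, can place a new copy elsewhere in the genome. A subfamily is a set of copies that share diagnostic nucleotides of the source copy from which they descend, so young subfamilies are those with copies that still resemble their source. An insertion in a germ cell can be inherited, and the study's authors had earlier reported the highest B1 expression in testis.

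All libraries came from C57BL/6J mice at postnatal day 7, with no transgene or treatment of the animals stated. Whole testis RNA gave 1 library without enzyme, 1 after 25 U of TAP (tobacco alkaline phosphatase in the labels) for 1.5 h and 1 after 20 U of 5' polyphosphatase for 0.5 h, each from 600 ng of RNA. Spermatogonia, the germ cells that divide before meiosis, were sorted from testes by the surface protein EpCAM and gave 2 replicates, each from 500 ng of RNA treated with 25 U of RppH (RNA 5' pyrophosphohydrolase) for 1 h. The 5' adaptor is ligated to a monophosphate, and an intact Pol III transcript can therefore enter a library once an enzyme has trimmed its end. TAP opens both caps and triphosphates, whereas 5' polyphosphatase opens triphosphates and leaves caps. The labels give inserts of 115 to 255 nt for both kinds of library, while the methods give that range for testis and a gel selection without a range for spermatogonia. A retained read spans an RNA molecule from end to end, be it a whole transcript or a fragment. Levels were therefore compared as reads without division by length.

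The tables held between 1067851 and 3166394 listed reads per library, and 5.8S rRNA, which carries a monophosphate of its own and served as the internal standard, took from 19.2% to 50.2% of them. The level of a name is given in RPM, here its reads scaled to 1000000 reads of 5.8S rRNA in that library, and beside it scaled to 1000000 listed reads. The share of 5.8S rRNA was highest in the TAP library, at 50.2%, and it was 39.1% in spermatogonia replicate 1 and 25.9% in replicate 2. Its part in the ratios below was not tested. The testis and spermatogonia tables do not list the same names: 18S and 28S rRNA took 26.7% and 28.2% of the listed reads in spermatogonia replicates 1 and 2 and had 0 listed reads in testis, so a listed read is not the same unit in both. The tables list repeats and non-coding RNAs, so the labelled tissue and cell type could not be checked against protein-coding markers. Every interval was computed from read counts and covers their counting error only. No molecular identifiers were used, so PCR copies of 1 molecule could count as separate reads and the intervals can be too narrow.

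The young B1 RNAs were few in untreated testis and most frequent in spermatogonia, under either denominator. B1_Mm had 62 reads in the untreated testis library, 163 after TAP, 431 after 5' polyphosphatase, 8557 in spermatogonia replicate 1 and 10077 in replicate 2. B1_Mus1 had 52, 200, 288, 7672 and 6663 reads in the same libraries. B1_Mus2 had 68, 194, 340, 11366 and 9872 reads. Per 5.8S rRNA read and per listed read, the testis levels of each subfamily rank in the order untreated, TAP and 5' polyphosphatase, and both spermatogonia replicates lay above all 3 testis libraries. The 3 untreated counts stood well above 3 reads, the floor to which lower counts were raised in ratios over all names.

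As levels, B1_Mm was at 196 RPM in untreated testis, 304 RPM after TAP and 2072 RPM after 5' polyphosphatase. B1_Mus1 was at 164, 373 and 1385 RPM, and B1_Mus2 at 215, 362 and 1635 RPM in the same testis libraries. In spermatogonia B1_Mm reached 6918 RPM in replicate 1 and 19544 RPM in replicate 2. The replicates differed most for this subfamily, whose mean was 13231 ± 8928 RPM (SD, n = 2). The mean was 9562 ± 4752 RPM for B1_Mus1 and 14168 ± 7041 RPM for B1_Mus2. Each SD exceeded the distance between these means, but it holds the difference in scale that the subfamilies share within a replicate, so their order is given within each library.

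Summed over the 3 subfamilies, the level was 576 RPM in untreated testis, 1039 RPM after TAP, 5091 RPM after 5' polyphosphatase, 22309 RPM in spermatogonia replicate 1 and 51613 RPM in replicate 2. Scaled to 1000000 listed reads the sum was 157, 522, 979, 8715 and 13352. The order of the 5 libraries was thus the same on both scales, while the distance between TAP and untreated was larger and that between the spermatogonia replicates smaller per listed read. Near-identical subfamilies can exchange reads when a repeat is assigned, so the sum is more certain than its split.

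**Figure D1:**
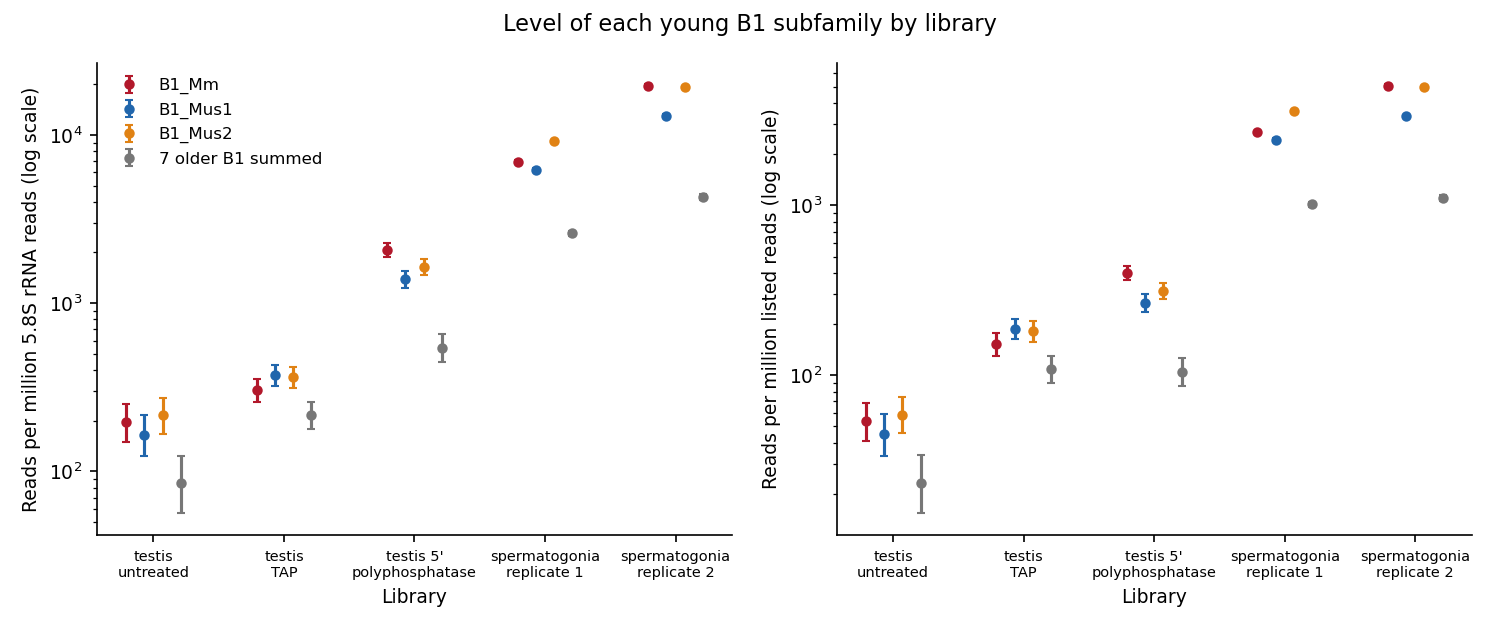
Level of B1_Mm, B1_Mus1, B1_Mus2 and the 7 older B1 subfamilies summed in each of the 5 libraries, in RPM (left) and scaled to 1000000 listed reads (right), both on log axes; bars are exact Poisson 95% intervals of the counts. On both scales the 3 young subfamilies lie close together in each library and are highest in the 2 spermatogonia replicates.

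Among the SINE names, the young B1 subfamilies together took 26.2% of SINE reads in untreated testis, 19.4% after TAP, 33.0% after 5' polyphosphatase, 15.6% in spermatogonia replicate 1 and 19.3% in replicate 2. B1_Mus2 ranked 2 among the 29 SINE names with a read in the untreated library, behind FAM, a 7SL-derived monomer, and tied at 68 reads with B2_Mm2, a subfamily of the tRNA-derived SINE B2. B1_Mm ranked 2 of 34 after 5' polyphosphatase, behind B2_Mm2. In spermatogonia the best placed member ranked 4 of 38 in each replicate, and it was B1_Mus2 in replicate 1 and B1_Mm in replicate 2. B2_Mm2 led in all libraries except the untreated one.

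The split among the 3 subfamilies was uneven but moved with the library. B1_Mm made up 34.1% of their reads in untreated testis (Wilson 95% interval 27.6% to 41.2%), 29.3% after TAP (25.6% to 33.2%) and 40.7% after 5' polyphosphatase (37.8% to 43.7%). B1_Mus1 made up 28.6% (22.5% to 35.5%), 35.9% (32.0% to 40.0%) and 27.2% (24.6% to 30.0%). B1_Mus2 made up 37.4% (30.7% to 44.6%), 34.8% (31.0% to 38.9%) and 32.1% (29.4% to 35.0%). The intervals of B1_Mm and of B1_Mus1 did not overlap between the TAP and 5' polyphosphatase libraries, whereas those of B1_Mus2 did.

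In spermatogonia the share of B1_Mm was 31.0% in replicate 1 and 37.9% in replicate 2, that of B1_Mus1 27.8% and 25.0%, and that of B1_Mus2 41.2% and 37.1%. The shares of replicate 2 differed from those of replicate 1 by 6.86, -2.76 and -4.09 percentage points in that order, and the Wilson intervals of the replicates did not overlap for any of the 3. The testis range was 11.4 points for B1_Mm, 8.71 for B1_Mus1 and 5.26 for B1_Mus2. With 1 library per testis treatment, no replicate spread was at hand for those ranges.

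The order of the 3 levels within a library was resolved only in part. The ratio of B1_Mus1 to B1_Mus2 reads without enzyme was 0.765 (95% interval by read counts 0.533 to 1.10), and in the TAP library it was 1.03 (0.846 to 1.26). Neither library separated any pair of the subfamilies beyond counting error. After 5' polyphosphatase B1_Mm lay above both others, with a ratio of B1_Mus1 to B1_Mm of 0.668 (0.576 to 0.776) and of B1_Mus2 to B1_Mm of 0.789 (0.684 to 0.909). B1_Mus1 was the lowest of the 3 in both spermatogonia replicates. Replicate 1 had a ratio of B1_Mus1 to B1_Mus2 of 0.675 (0.656 to 0.695), and replicate 2 also had 0.675 (0.654 to 0.696), the closest match between the replicates. By contrast, replicate 1 had 1.33 (1.29 to 1.37) for B1_Mus2 over B1_Mm, and replicate 2 had 0.980 (0.953 to 1.01). B1_Mus2 was thus the higher in replicate 1, and the pair was not separated in replicate 2.

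**Figure D2:**
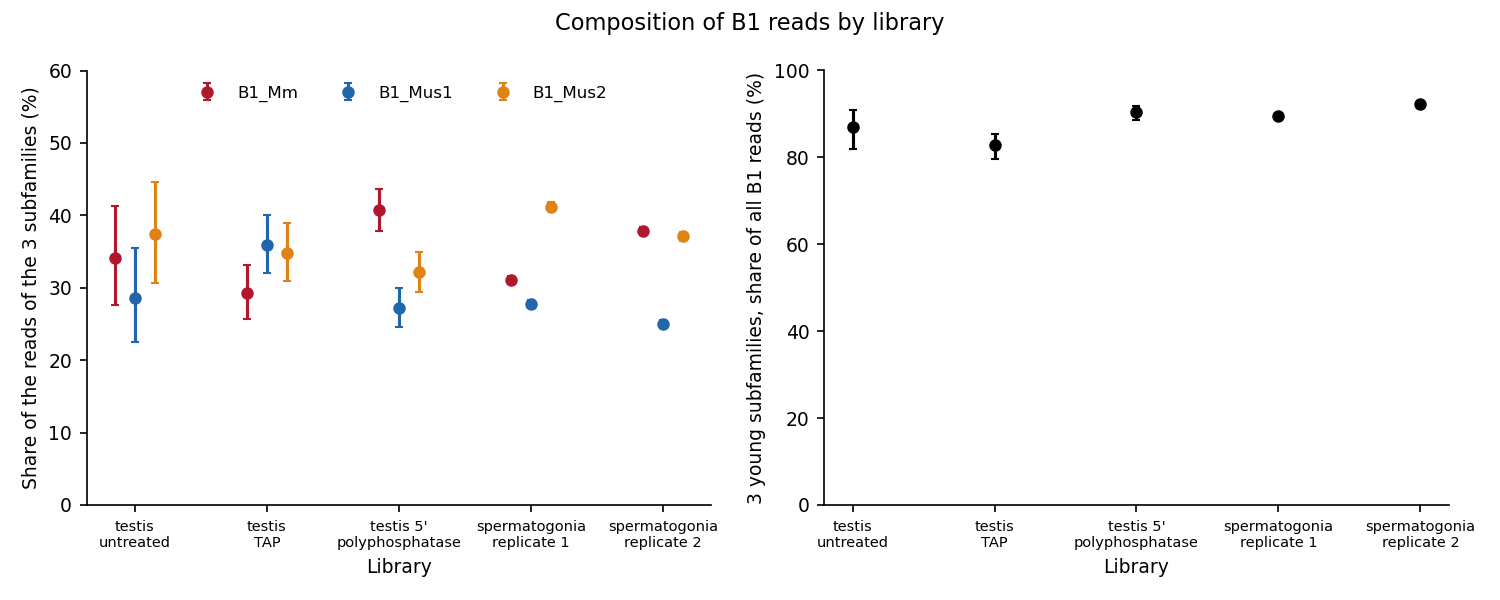
Left, share of B1_Mm, B1_Mus1 and B1_Mus2 in their summed reads in each of the 5 libraries; right, share of the 3 together in all B1 reads; both in percent with Wilson 95% intervals. The shares of B1_Mm run from 29.3% to 40.7%, and the 3 together hold 82.8% or more of B1 reads in every library.

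The other 7 B1 subfamilies, B1_Mur1 to B1_Mur4, B1F, B1F1 and B1F2, are older and their copies have diverged further. Their summed reads numbered 27 in untreated testis, 116 after TAP, 113 after 5' polyphosphatase, 3220 in spermatogonia replicate 1 and 2194 in replicate 2. The young subfamilies accordingly held 87.1% of all B1 reads in the untreated library (Wilson 95% interval 81.9% to 91.0%), 82.8% after TAP (79.7% to 85.4%) and 90.4% after 5' polyphosphatase (88.5% to 91.9%). In spermatogonia they held 89.6% (89.2% to 89.9%) and 92.4% (92.1% to 92.7%), a mean of 91.0% ± 2.00 (SD, n = 2). The TAP library had the lowest share, and its interval lay below those of the 5' polyphosphatase and spermatogonia libraries. Of the older subfamilies B1_Mur4 had the most reads in every library, with 9, 45, 58, 1439 and 1004 in the order above.

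The question of the TAP comparison was whether young B1 RNA becomes readable once 5' ends are opened. After TAP the level of the 3 subfamilies summed was 1.80 times its untreated value (1.53 to 2.13, the 95% interval that the read counts give). The ratio was 1.55 (1.16 to 2.08) for B1_Mm, 2.27 (1.67 to 3.08) for B1_Mus1 and 1.68 (1.28 to 2.22) for B1_Mus2. All 3 intervals lay above 1 and overlapped one another. Of the 3 pairs, B1_Mus1 against B1_Mm was furthest apart, with a ratio of ratios of 1.46 (0.959 to 2.23), so no difference between subfamilies was resolved at this depth. The intervals compare libraries, not treatments, because each treatment has 1 library.

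Against all names compared, the young B1 ratios after TAP were in the upper range but not at its end. Only B1_Mus1 reached a ratio of 2, a threshold that 26.2% of the 324 names with at least 10 reads in both libraries together passed. B1_Mm lay above 66.7% of those names, B1_Mus2 above 68.5% and B1_Mus1 above 76.2%. The median ratio over all these names was 0.598, and relative to that median the sum of the 3 was 3.02 times higher. Per listed read the sum had a ratio of 3.33, and all 3 subfamilies passed the threshold, as did 37.7% of the names.

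The 5' polyphosphatase comparison used the same untreated library. The summed level was 8.84 times the untreated level (7.56 to 10.3), and the ratio was 10.6 (8.10 to 13.8) for B1_Mm, 8.42 (6.27 to 11.3) for B1_Mus1 and 7.60 (5.86 to 9.86) for B1_Mus2. All 3 subfamilies passed a ratio of 2, as did 41% of the 315 names compared. B1_Mm lay above 91.7% of the names, B1_Mus1 above 87.0% and B1_Mus2 above 85.7%. The median over all names was 1.75, and the sum of the 3 was 5.04 times higher than that median. Per listed read the ratio of the sum was 6.25. The ratio of B1_Mus2 relative to that of B1_Mm was 0.719 (0.496 to 1.04), so the subfamilies were again not separated.

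The same libraries gave the reference RNAs the following ratios. For 5S rRNA, a Pol III transcript with a triphosphate, the ratio was 4.14 after TAP and 7.18 after 5' polyphosphatase. The spliceosomal U5 snRNA, which carries a cap, had ratios of 24.6 (23.7 to 25.4) and 0.896 (0.848 to 0.948). The young B1 RNAs thus differed from U5 in opposite directions in the 2 treatments, with ratios of U5 relative to the young B1 sum of 13.6 (11.5 to 16.1) for TAP and 0.101 (0.0858 to 0.120) for 5' polyphosphatase. U4 snRNA, also capped, was at 1.15 (1.05 to 1.27) and 0.897 (0.791 to 1.02) in the same order, and U1 snRNA at 7.21 (6.37 to 8.17) and 1.84 (1.56 to 2.16). Of the other Pol III RNAs, 7SK was at 3.44 and 2.29, U6 snRNA at 1.27 and 3.55, and the Y RNAs, which bind the Ro protein, at 1.19 and 3.21 when pooled. The pool joins Y1 at 4.30 (1.95 to 9.47) and Y3 at 0.606 (0.385 to 0.952) after TAP, with 7.38 (3.27 to 16.7) and 2.42 (1.61 to 3.66) after 5' polyphosphatase. After 5' polyphosphatase the point value of the young B1 sum was above each of these references, with an interval that overlapped that of Y1. After TAP it was above U4, U6 and Y3 and below 5S rRNA, 7SK, U1, U5 and Y1. The interval of the young B1 sum overlapped those of U6 and Y1. Relative to the young B1 sum, the TAP ratio was 2.29 (1.93 to 2.72) for 5S rRNA and 1.90 (1.58 to 2.30) for 7SK.

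Older B1 RNAs had a ratio of 2.53 after TAP (1.67 to 3.85), and one of 6.36 after 5' polyphosphatase (4.18 to 9.68). Divided by the young ratio, these came to 1.40 (0.894 to 2.20) for TAP and 0.719 (0.459 to 1.13) for 5' polyphosphatase. The sums of the age classes were thus not separated in either comparison. The older sum includes B1F1, with 6 untreated reads and 0 after either enzyme. The 4 older subfamilies with enough reads to compare, at 2 to 9 untreated reads each, had a median TAP ratio of 3.32. Of these 4, 3 passed a ratio of 2, against 1 of the 3 young, whose median was 1.68. After 5' polyphosphatase these medians were 8.32 and 8.42. The PB1 and FAM monomers, which are 7SL-derived and older than B1, had 182 reads in the untreated library, as many as the 3 young subfamilies together. Pooled, TAP gave them a ratio of 0.979 (0.814 to 1.18) and 5' polyphosphatase one of 1.64 (1.34 to 2.00), but FAM held 143 of those 182 reads and the PB1 names behaved otherwise. FAM alone had ratios of 0.503 (0.395 to 0.641) and 1.04 (0.806 to 1.35), below those of young B1 in both treatments. The 5 PB1 names together had 2.72 (1.93 to 3.85) after TAP, 1.51 times the young B1 ratio (1.03 to 2.22). After 5' polyphosphatase they had 3.82 (2.64 to 5.54), which was 0.432 of it (0.289 to 0.646). B2, whose 4 subfamilies are tRNA-derived, had a ratio of 3.20 after TAP, 1.77 times that of young B1 (1.40 to 2.24). After 5' polyphosphatase the B2 ratio was 10.7, and its excess over young B1 of 1.21 (0.967 to 1.52) was not resolved.

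**Figure D3:**
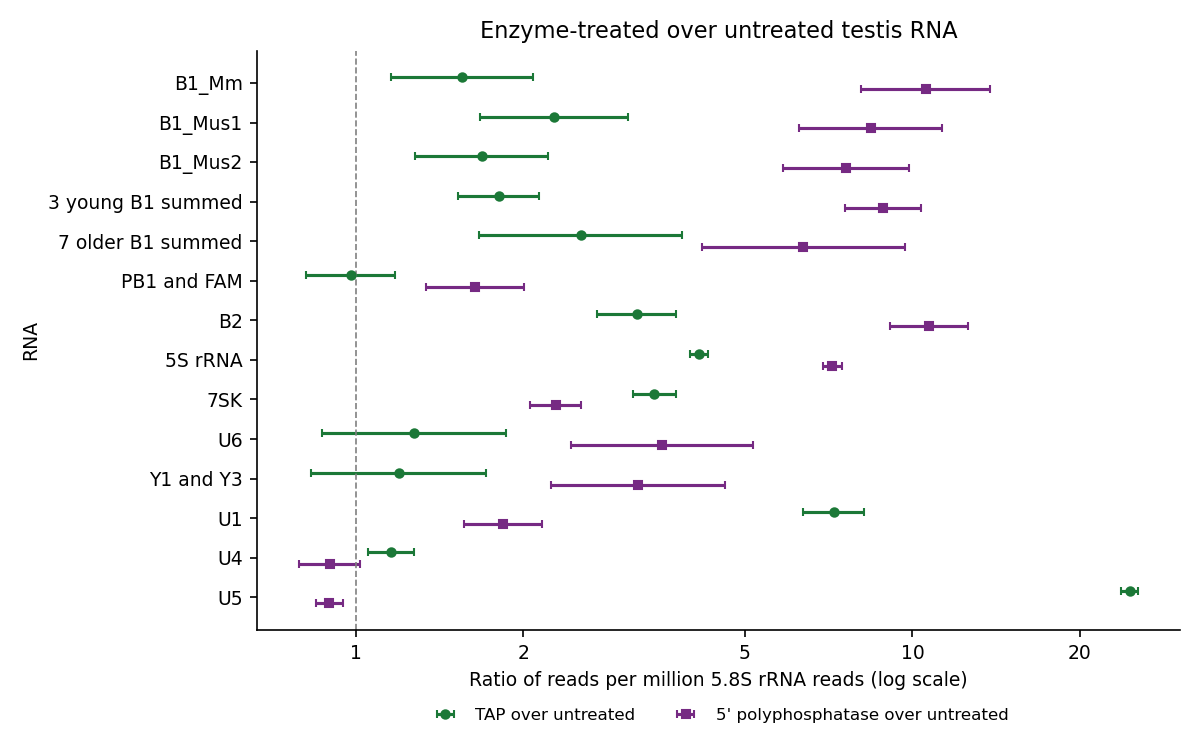
Ratio of the level in RPM after TAP (circles) and after 5' polyphosphatase (squares) to that in the untreated testis library, for the young B1 subfamilies, their sum and the comparison RNAs, on a log axis with 95% intervals from the read counts; the dashed line marks a ratio of 1 and both series share the untreated library. The 3 young B1 subfamilies lie between 1.55 and 2.27 after TAP and between 7.60 and 10.6 after 5' polyphosphatase, whereas U5 lies at 24.6 and 0.896.

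Set directly against each other, the treated testis libraries separated the subfamilies. B1_Mm was 6.81 times higher after 5' polyphosphatase than after TAP (5.69 to 8.16), B1_Mus2 4.52 times (3.79 to 5.39) and B1_Mus1 3.71 times (3.10 to 4.44). The ratio of B1_Mus1 relative to B1_Mm was 0.545 (0.422 to 0.703), that of B1_Mus2 relative to B1_Mm 0.663 (0.515 to 0.853) and that of B1_Mus1 relative to B1_Mus2 0.822 (0.638 to 1.06). B1_Mm therefore stood apart from both others beyond counting error, and these relative values do not depend on the denominator. The spermatogonia replicates, libraries of one condition, also differed beyond counting error in the quotients of B1_Mus1 and B1_Mus2 to B1_Mm, by factors of 0.737 and 0.738. A ratio of 2 was passed by all 3 subfamilies and by 68.6% of 347 names, whose median was 3.35. The 3 subfamilies lay above 70.3% (B1_Mm), 54.8% (B1_Mus1) and 62.2% (B1_Mus2) of the names.

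The size of that step rested on the denominator. For the sum of the 3 the ratio of 5' polyphosphatase to TAP was 4.90 per 5.8S rRNA read, 2.32 per sequenced read, 1.88 per listed read, 1.13 per listed read other than rRNA and 0.869 with median-of-ratios size factors, so that its direction turned with the last. The older B1 RNAs had a ratio per 5.8S rRNA read of 2.51 (1.94 to 3.25), which was 0.512 (0.388 to 0.677) of the young B1 ratio whatever the denominator. The ratio of U5 was 0.0365 (0.0349 to 0.0382).

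**Figure D4:**
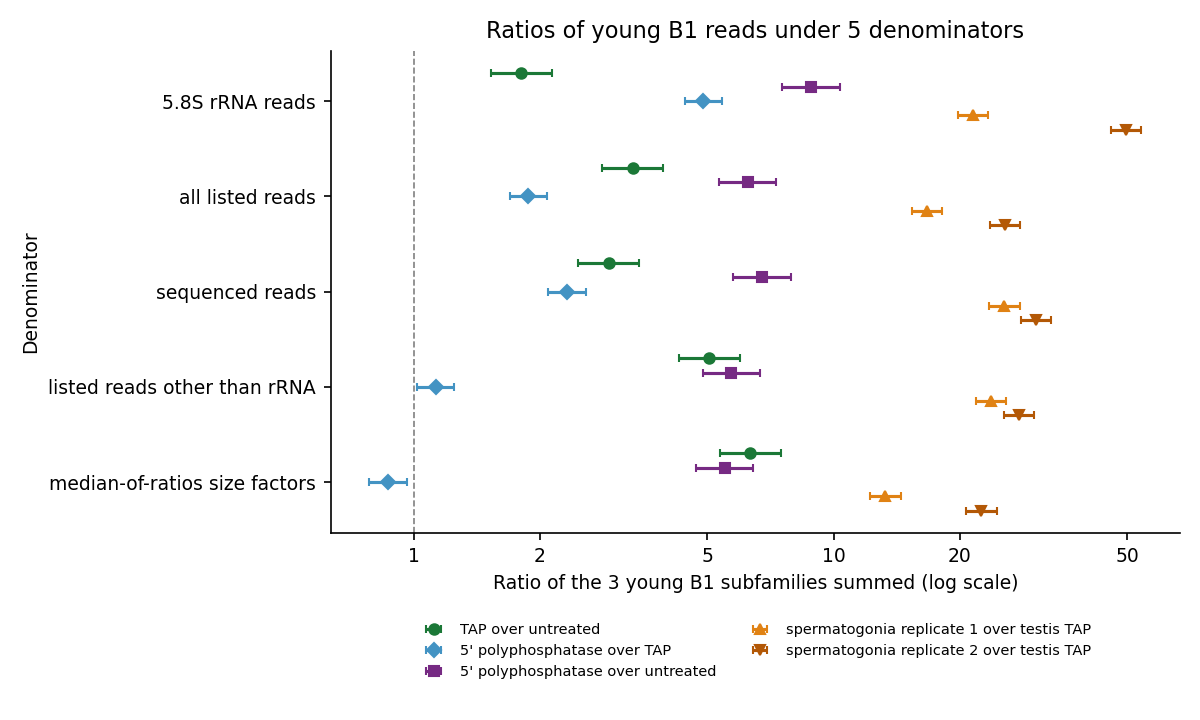
Ratios of the reads of the 3 young B1 subfamilies summed between libraries, with 5 denominators (rows), on a log axis with 95% intervals from the read counts; the dashed line marks a ratio of 1. TAP over untreated runs from 1.80 to 6.33 and 5' polyphosphatase over untreated from 5.51 to 8.84, while 5' polyphosphatase over TAP falls from 4.90 to 0.869.

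The spermatogonia comparison asked how the germ cells differ from the whole organ, in which somatic cells are also present. Relative to the TAP library of testis, the young B1 sum was 21.5 times higher in replicate 1 (19.7 to 23.3) and 49.7 times higher in replicate 2 (45.7 to 54.0), a mean of 35.6 ± 19.9 (SD, n = 2). B1_Mm was 22.7 and 64.3 times higher, B1_Mus1 16.6 and 34.6 times and B1_Mus2 25.4 and 52.9 times. Every value lay far above 1, and within each subfamily replicate 2 was further from testis than replicate 1. Spermatogonia had no library without enzyme, so the part of their young B1 reads that needed an enzyme was not measured. Cell population, enzyme, library kit and amount of RNA differed together between the testis and spermatogonia libraries, so their parts cannot be told apart. In such bulk RNA, fewer cells of a type and less RNA per cell cannot be told apart either.

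Per listed read, with the 18S and 28S rRNA reads counted in spermatogonia alone, the sum was 16.7 and 25.6 times higher, a mean of 21.2 ± 6.29 (SD, n = 2). Per listed read other than rRNA it was 23.7 and 27.6 times higher, a mean of 25.7 ± 2.78 (SD, n = 2). Against the 5' polyphosphatase library of testis it was 4.38 times higher in replicate 1 and 10.1 times in replicate 2 per 5.8S rRNA read, a mean of 7.26 ± 4.07 (SD, n = 2). Per 5.8S rRNA read the choice of testis library thus moved the mean by a larger factor than that between the replicates. Against 5' polyphosphatase the mean was 11.3 per listed read, 12.0 per sequenced read, 22.8 per listed read other than rRNA and 20.6 with median-of-ratios size factors. Against TAP these means were 21.2, 27.9, 25.7 and 17.9, so the direction turned with the last. The subfamily furthest from testis also changed with it. It was B1_Mus2 in replicate 1 and B1_Mm in replicate 2 against TAP, and B1_Mus2 in both replicates against 5' polyphosphatase, at 5.62 and 11.7.

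A ratio of 2 to the TAP library in both replicates was passed by all 3 young subfamilies and by 55.3% of the 474 names compared. B1_Mm lay above 92.2% of those names, B1_Mus2 above 91.8% and B1_Mus1 above 87.3%, by the geometric mean of the replicates. Of these names 96 had no read in at least 1 of the 3 libraries, among them 18S and 28S rRNA, so this background also counts which names a table lists. Over the 378 names with a read in each library, a choice made after seeing the data, 51.6% passed, the median ratio was 2.65 against 3.11 over all 474, and the 3 subfamilies lay above 92.3% (B1_Mm), 87.8% (B1_Mus1) and 92.1% (B1_Mus2). Neither median is a reference for no change. Of the 34 SINE names among the 474, 27 passed (79.4%), and their median ratio was 11.9. B1_Mus1 had the smallest step of the 3 against TAP. Its ratio was 0.731 (0.593 to 0.901) and 0.539 (0.437 to 0.664) of that of B1_Mm in replicates 1 and 2, and 0.655 of that of B1_Mus2 in each. Against 5' polyphosphatase B1_Mm had the smallest step in replicate 1, at 3.34 beside 4.48 for B1_Mus1, whose ratio relative to B1_Mm was 1.34 (1.15 to 1.56). In replicate 2 they were at 9.43 and 9.33 and were not separated (0.850 to 1.15).

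**Figure D5:**
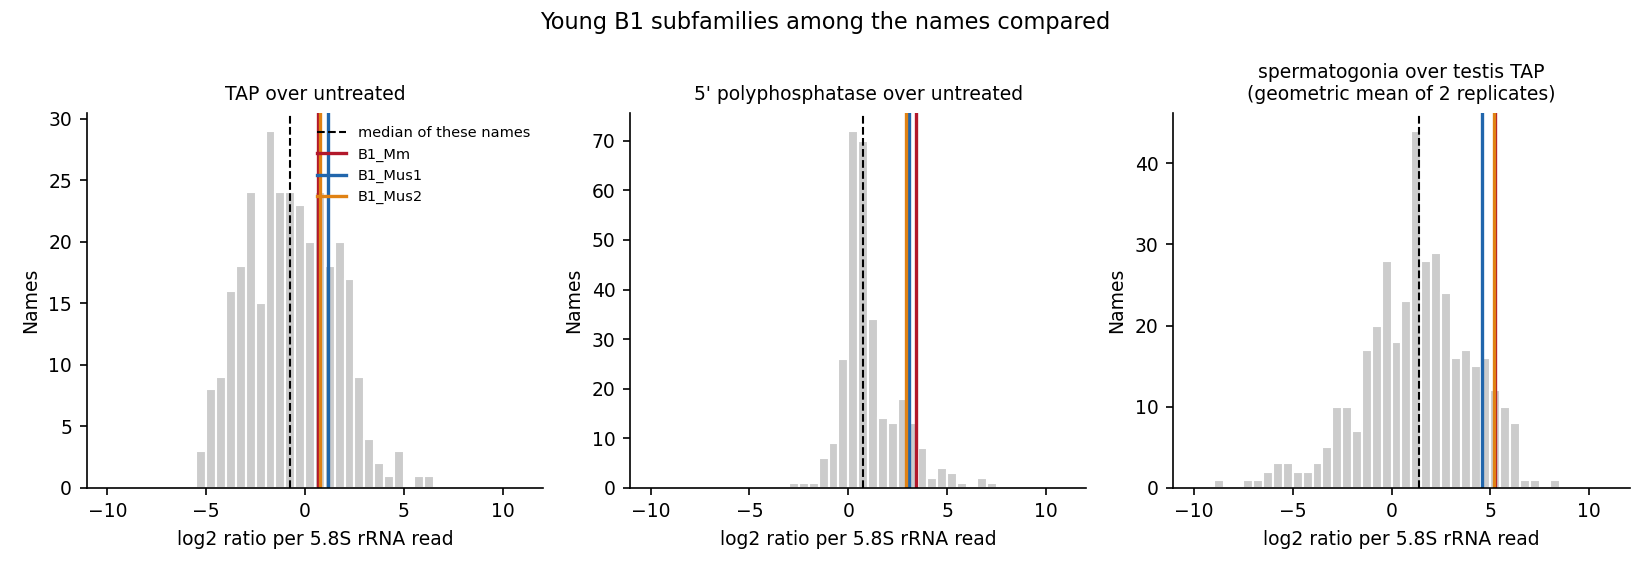
Distribution of log2 ratios per 5.8S rRNA read over the names with a read in every library compared, for TAP over untreated testis (313 names), 5' polyphosphatase over untreated testis (299 names) and spermatogonia over testis TAP (378 names), with the median of these names dashed and the 3 young B1 subfamilies as coloured lines. The subfamilies lie to the right of the median in each panel, above at least 68.7% of names after TAP, 88.0% after 5' polyphosphatase and 87.8% in spermatogonia.

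The older B1 RNAs were 12.0 and 19.7 times higher in the spermatogonia replicates than in the TAP library, which was 0.560 (0.457 to 0.687) and 0.396 (0.323 to 0.486) of the young B1 ratios. Against the 5' polyphosphatase library the older ratio was 1.09 times the young one in replicate 1 (0.898 to 1.33) and 0.773 times in replicate 2 (0.633 to 0.943). By counting error alone the young step was thus the larger in both replicates against TAP, and against 5' polyphosphatase in replicate 2 but not in replicate 1. The same quotient differed between the replicates by a factor of 0.707 (0.668 to 0.748), so libraries of one condition also differed beyond counting error. FAM was at 0.305 and 1.03 times its TAP level, and the PB1 names together at 3.02 and 5.35 times. B2 moved further than young B1, and its ratio to TAP was 2.81 (2.53 to 3.13) and 2.19 (1.97 to 2.43) times that of young B1. Within a library, B2 reads over young B1 reads were 0.934 in untreated testis, 1.66 after TAP, 1.13 after 5' polyphosphatase, 4.66 in spermatogonia replicate 1 and 3.62 in replicate 2.

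The spermatogonia replicates were not equal for the young B1 RNAs. Replicate 2 over replicate 1 was 2.83 (2.74 to 2.91) for B1_Mm, 2.08 (2.02 to 2.15) for B1_Mus1 and 2.08 (2.03 to 2.14) for B1_Mus2 per 5.8S rRNA read. The median of 512 names was 1.54, with quartiles of 1.07 and 2.04, so all 3 subfamilies lay above the upper quartile. Per listed read the median was 1.02. The steps of B1_Mus1 and B1_Mus2 were not separated (interval of their quotient 0.958 to 1.04), whereas that of B1_Mus1 was 0.737 (0.706 to 0.770) and that of B1_Mus2 0.738 (0.709 to 0.767) of the step of B1_Mm. The older B1 sum had a replicate ratio of 1.63.

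The names whose profile over the 5 libraries was nearest to that of the young B1 sum were sought among 292 other names with at least 50 reads in all. Likeness was the root mean square difference of log2(RPM + 1) after centring each profile on its own mean. The nearest was tRNA_chr10.trna979-AlaAGC, an alanine tRNA, at 0.332 log2 units, with 1, 7, 13, 331 and 249 reads in the order of libraries used above. It was followed by B1_Mur4 at 0.356, tRNA_chr13.trna67-AlaAGC at 0.410, tRNA_chr10.trna1120-AlaAGC at 0.450 and B3, another tRNA-derived SINE, at 0.477. The members themselves lay at 0.187 (B1_Mus2), 0.252 (B1_Mus1) and 0.269 (B1_Mm), each measured from the sum of the other members. The tRNA values rest on few testis reads.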

How the data were processed

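The authors deposited counts that were not normalized, 1 per name of a repeat or RNA, for each of 5 libraries. After MiSeq sequencing they trimmed the 3' adaptor with Cutadapt (also named in the submitters' processing notes, without a version), dropped reads lacking it and classified the others with RepeatMasker, whose version and repeat library are not given in the sources used here. Reads carry no positions, so no coordinates of B1 copies are given. Lines without a count (2 in all) were skipped, and 0 columns belonged to other samples. For spermatogonia the labels and the methods differ in kit and RNA amount, and the methods were followed (NEBNext, against TruSeq for testis).

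RPM were computed per 1000000 5.8S rRNA reads. Shares have Wilson 95% intervals, levels exact Poisson intervals, and ratios intervals from the log ratio with the sum of reciprocal counts as variance. These intervals were tested on simulated counts that held counting error only, so the test does not cover differences between libraries beyond it. Counts under 3 were set to 3 in ratios over all names. Conditions were not tested against each other, as each testis treatment has 1 library. The labels do not say what separates the 2 spermatogonia replicates, which the study calls biological, so their spread may be partly technical. Alternatives changed the denominator (listed reads, sequenced reads of the study, listed reads other than rRNA, size factors over 173 names), the testis library, the minimum of 10 reads, and the replicates. The members, the lists and the rule for named RNAs (the members, the other B1, PB1 and FAM, B2, Pol III and capped RNAs, and the 5 nearest profiles) were chosen with earlier results of these data known. Scripts ran under Python 3.11.15 with scipy 1.17.1, numpy 2.4.6 and, for plots, matplotlib 3.10.9.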

Additional observations from a re-analysis of the deposited data

How the results depend on the processing

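The young B1 sum stayed above 1 in TAP over untreated, 5' polyphosphatase over untreated and spermatogonia over testis under every alternative run. TAP over untreated was 3.33 per listed read, 2.92 per sequenced read, 5.06 per listed read other than rRNA and 6.33 with size factors, and 5' polyphosphatase over untreated was 6.25, 6.76, 5.70 and 5.51 in that order. The same denominators, applied to 5' polyphosphatase over TAP after its values had been seen, gave 1.88, 2.32, 1.13 and 0.869, the last reversed. B1_Mus1 reversed there to 0.855 per listed read other than rRNA and 0.658 with size factors, and B1_Mus2 to 0.801 with size factors. The denominators' own construction sets these differences, and why 5.8S rRNA differed between libraries was not tested. Per 5.8S rRNA read, spermatogonia over testis was 7.26 with the 5' polyphosphatase library and from 21.5 to 49.7 with either replicate left out. The young share of B1 reads was 87.5% with PB1 and FAM counted as B1, and from 89.6% to 92.4% with either replicate left out. A minimum of 50 reads, which leaves fewer names, gave 40 of 198 names past a ratio of 2 for TAP (20.2%). It gave 64 of 195 for 5' polyphosphatase (32.8%) and 168 of 303 for spermatogonia (55.4%). With 10 reads these were 85 of 324 (26.2%), 129 of 315 (41.0%) and 262 of 474 (55.3%). Counting only names with a read in every library compared was an alternative added after seeing the data. It gave 76 of 313 (24.3%), 113 of 299 (37.8%) and 195 of 378 (51.6%). For spermatogonia, leaving out replicate 2 gave 277 of 515 names (53.8%), and leaving out replicate 1 gave 310 of 480 (64.6%). Depth limits the untreated library, with 52 to 68 reads per subfamily. No paired analysis was possible because each testis treatment has 1 library and the testis labels carry no replicate numbers.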
